A study of Mus musculus with 8 samples.

Results

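The genes of cholesterol synthesis, of its control by sterol regulatory element-binding proteins (SREBPs) and of sterol transport were followed in the hippocampus of Ts1Cje and wild-type mice. The 28 genes were listed by function and found through the RefSeq accession of each array probe. All 28 of 28 were found, on 38 of the 27235 probes that could be named, out of 20660 named genes in all. They comprise 20 synthesis enzymes, 4 genes of SREBP control and 4 genes of sterol transport, storage and export. Total RNA was hybridised to 8 one-colour arrays, 4 per genotype, and all mice were 3 months old and of strain C57BL6/J per the labels. The series' text describes them as 4 pairs of Ts1Cje mice and disomic littermates. Ts1Cje mice, used to model Down syndrome, are trisomic for a distal segment of chromosome 16, with a disrupted copy of Sod1 and loss of the end of chromosome 12 through the translocation. None of the 28 genes lies on chromosome 16 or 12.

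Cholesterol does not enter the brain from blood in useful amounts, so brain cells make their own, with oligodendrocytes and astrocytes as the main producers in the adult. Acetyl-CoA is built into mevalonate and then into isoprenoid units, which are joined to squalene, closed to lanosterol and trimmed to cholesterol. When sterol is scarce in the endoplasmic reticulum, Scap escorts SREBPs to the Golgi, where they are cut, and the released factors switch on most of the enzyme genes together. When sterol is plentiful, Insig proteins hold Scap back. Sterol excess is exported by Abca1 under liver X receptors such as Nr1h2 or stored as esters by Soat1.

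Each value given for a gene is the log2 signal of its brightest probe relative to the 75th percentile of the same array, so that values of different genes are not compared with each other. All 28 genes passed the filter on dim signals, which required that one genotype or the other had the probe well above background in each of its 4 samples. On each array 59.9% to 63.1% of the 55681 probes were well above background, and the number of arrays limits the precision. All 8 markers of hippocampal neurons were above background on all 8 arrays, as were all 10 astrocyte and all 10 myelin markers.

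On the brightest probe of each gene, the genotypes did not separate in any of the 28 genes. Of all 24025 features tested, 0.196% were called (limma, Benjamini-Hochberg adjusted p under 0.05), and 0 of the 28 genes. Without adjustment, 8.73% of all features and 0 of the 28 had a p under 0.05 in the same limma fit. The arrays of the genotypes did not overlap for 6.12% of all features and for 0 of the 28. The log2 difference, Ts1Cje minus wild-type, ran from -0.22 (Cyp51) to 0.13 (Mvk), with a median of -0.05 against -0.0072 over all features. The difference was below 0 for 24 of the 28 genes and for 52.7% of all features. The adjusted p ran from 0.58 to 0.99. For 27 of the 28 genes the 95% interval lay within a 1.5-fold change in either direction. The exception was Insig1, whose interval of -0.64 to 0.25 allows a larger decrease.

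**Figure D1:**
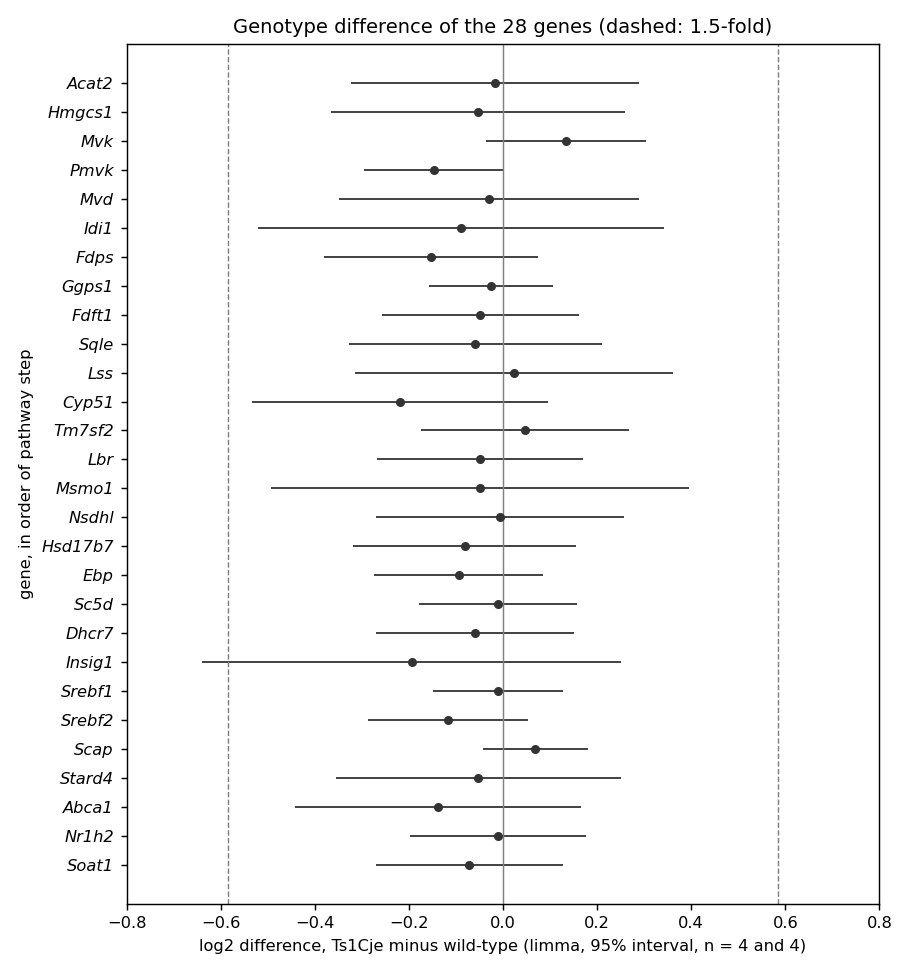
Log2 difference, Ts1Cje minus wild-type, of the 28 genes in order of pathway step, with the 95% interval of the limma fit (n = 4 arrays each). Every interval, each from the brightest probe of its gene, includes 0, and that of Insig1 alone crosses a dashed line at a 1.5-fold change.

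Most of the synthesis enzymes shared a pattern across single arrays within each genotype. Wild-type replicate 1 was high and Ts1Cje replicate 1 was low. On wild-type replicate 1, 19 of the 20 enzymes stood above their own mean over the 8 arrays, against 50.5% of all features. Ts1Cje replicate 1 had 15 of the 20 below their own mean, against 50.3% of all features. The same count of 15 held on wild-type replicates 3 and 4 and on Ts1Cje replicate 4, so the count alone does not set Ts1Cje replicate 1 apart. Of the 20 enzymes, 10 had their highest value on wild-type replicate 1 (12% of all features) and 13 their lowest on Ts1Cje replicate 1 (12.9% of all features). Both held for 8 enzymes, namely Hmgcs1, Idi1, Fdps, Fdft1, Sqle, Cyp51, Msmo1 and Hsd17b7, and for the sterol carrier Stard4, against 1.28% of all features. The replicate 1 arrays were singled out after the values were seen, so the counts are a description with no test.

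The sterol C4 oxidase Msmo1 showed the pattern most widely among the enzymes. It stood at 4.75, 4.38, 4.22 and 4.16 on wild-type replicates 1 to 4 and at 3.83, 4.64, 4.45 and 4.39 on Ts1Cje replicates 1 to 4. Between the 2 replicate 1 arrays this is a 1.90-fold ratio, whereas the genotype means of 4.38 ± 0.27 and 4.33 ± 0.35 (SD, n = 4 each) differed by -0.05 (SE 0.19). Idi1, which interconverts the isoprenoid building blocks, ran 2.91, 2.54, 2.19 and 2.30 in wild-type and 2.02, 2.67, 2.54 and 2.36 in Ts1Cje. Its extremes again fell on the replicate 1 arrays, 1.86-fold apart, and the other 6 arrays of the genotypes overlapped. The sterol demethylase gene Cyp51 ran -0.61, -0.95, -1.09 and -1.15 in wild-type and -1.41, -0.95, -1.14 and -1.17 in Ts1Cje. Hmgcs1, which makes the precursor of mevalonate, ran 5.29, 5.03, 5.08 and 4.97 in wild-type and 4.67, 5.25, 5.22 and 5.02 in Ts1Cje. In Hmgcs1, Ts1Cje replicates 2 and 3 lay above wild-type replicates 2 to 4. Without both replicate 1 arrays, which held its highest and lowest values, its difference was 0.14.

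**Figure D2:**
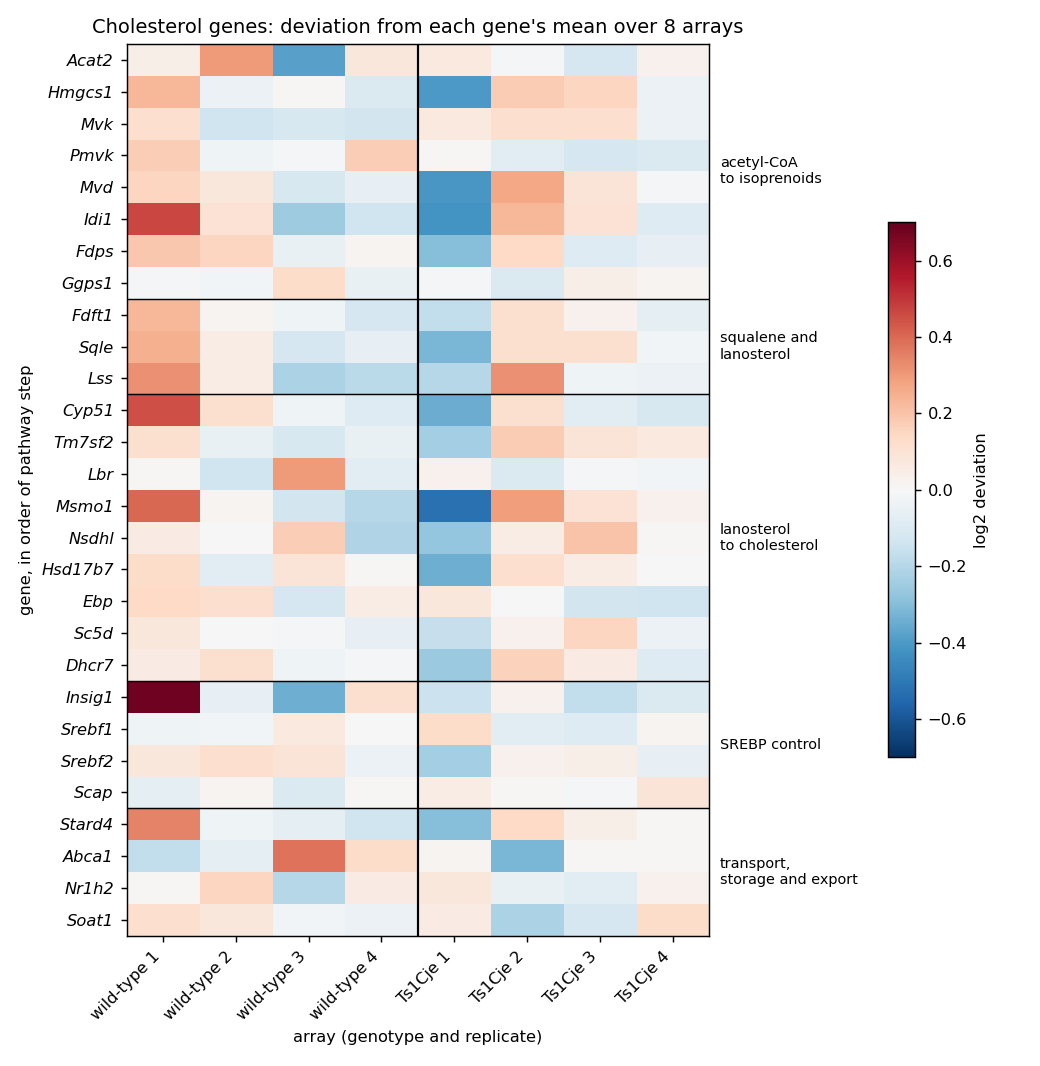
Log2 deviation of each of the 28 genes (rows, in order of pathway step) from its own mean over the 8 arrays (columns, by genotype and replicate). Most rows of the synthesis enzymes are red on wild-type replicate 1 and blue on Ts1Cje replicate 1, while Lbr, Ggps1, Scap and Abca1 are not.

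The DNA upstream of the start sites of the 28 genes was searched for the letters of SREBP and of its usual partner NF-Y. RefSeq's table of starts on build GRCm38.p6 held 24 of the 28 genes, and the 250 bases before each start were read. The sequences of the 4 enzymes whose values are given above, a choice made with values and motifs known, are shown 5′ to 3′ on the strand of the gene, with matches in capitals. Matches are TCACNCCA, the core of the sterol regulatory element, and CCAAT, the NF-Y box, each on either strand, so that the reverse complement ATTGG also marks an NF-Y box.
Hmgcs1, chr13:119690101-119690350, plus strand: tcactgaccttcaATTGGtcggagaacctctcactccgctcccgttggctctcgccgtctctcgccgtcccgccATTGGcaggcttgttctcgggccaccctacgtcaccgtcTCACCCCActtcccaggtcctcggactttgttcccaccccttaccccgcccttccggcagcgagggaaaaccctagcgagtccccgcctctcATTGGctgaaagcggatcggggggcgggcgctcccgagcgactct
Msmo1, chr8:64733579-64733828, minus strand: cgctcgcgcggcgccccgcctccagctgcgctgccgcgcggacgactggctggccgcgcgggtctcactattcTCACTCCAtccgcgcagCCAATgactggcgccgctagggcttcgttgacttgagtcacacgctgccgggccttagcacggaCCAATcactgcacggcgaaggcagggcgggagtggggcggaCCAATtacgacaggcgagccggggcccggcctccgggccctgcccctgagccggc
Idi1, chr13:8885356-8885605, plus strand: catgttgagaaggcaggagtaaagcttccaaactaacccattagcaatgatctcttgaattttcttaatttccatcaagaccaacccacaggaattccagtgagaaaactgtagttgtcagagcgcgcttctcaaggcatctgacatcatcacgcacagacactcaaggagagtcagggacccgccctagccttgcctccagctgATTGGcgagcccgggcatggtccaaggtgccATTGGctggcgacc
Cyp51, chr5:4104698-4104947, minus strand: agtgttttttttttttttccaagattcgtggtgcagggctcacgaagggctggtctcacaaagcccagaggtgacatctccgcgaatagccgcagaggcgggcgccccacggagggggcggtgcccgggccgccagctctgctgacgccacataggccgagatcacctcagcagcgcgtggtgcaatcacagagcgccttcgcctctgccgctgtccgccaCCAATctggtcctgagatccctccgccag
The Hmgcs1 sequence holds 1 match to the 8-letter core, which begins 137 bases before the start, and 3 CCAAT boxes. That of Msmo1 holds 1 match to the core, at 177 bases, and 3 CCAAT boxes, that of Idi1 2 CCAAT boxes and that of Cyp51 1. The longer form TCACNCCAC, which contains the 8-letter core, was found in Hmgcs1 only, or 4.17% of the 24 genes against 1.05% of all 32851 promoters, 1.22% of all genes in the table and 1.28% of the tested genes in it. The core itself was found in 3 of the 24 genes, Hmgcs1, Msmo1 and Srebf2, or 12.5% against 3.67% of all promoters, 4.2% of all genes and 4.06% of the tested genes. A CCAAT box was present in 20 of the 24 genes, 83.3% against 33.8% of all promoters, 37.5% of all genes in the table and 39.9% of the tested genes in it. The 4 without it were Acat2, Scap, Abca1 and Nr1h2. The part of either motif in the enzyme pattern was not tested. A match is a description of letters in this window and not a measured binding site. Elements with other letters were not searched for, so a sequence without a match may still hold one.

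In the first arm of the pathway, from acetyl-CoA to isoprenoids, the genes differed in how they varied. Acat2, the cytosolic thiolase, ran from -0.56 to 0.12 in wild-type and from -0.30 to -0.12 in Ts1Cje. Neither replicate 1 array was extreme for Acat2. The mevalonate decarboxylase Mvd was lowest on Ts1Cje replicate 1 at -0.01 and highest on Ts1Cje replicate 2 at 0.67, with wild-type arrays between 0.29 and 0.54. Fdps, which makes farnesyl diphosphate, ran 3.68, 3.65, 3.44 and 3.51 in wild-type and 3.20, 3.64, 3.40 and 3.43 in Ts1Cje. Its difference of -0.15 (SE 0.10, limma adjusted p = 0.67) came with overlapping groups. Ggps1, which leads isoprenoids to protein prenylation and away from sterol, varied least of the enzymes, by 0.23 over the 8 arrays.

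The mevalonate kinases Mvk and Pmvk had opposite differences. Mvk, the first kinase, stood at 3.32, 3.05, 3.08 and 3.06 in wild-type and at 3.26, 3.32, 3.32 and 3.15 in Ts1Cje. Its 3 lower wild-type arrays lay below every Ts1Cje array, and wild-type replicate 1 lay level with the highest. Its difference was 0.13 (SE 0.07, limma adjusted p = 0.64), and its other probe gave 0.11 (SE 0.06). Pmvk, the second kinase, stood at 4.25, 4.06, 4.08 and 4.25 in wild-type and at 4.09, 4.01, 3.97 and 3.98 in Ts1Cje. Its difference was -0.15 (SE 0.06, limma adjusted p = 0.58), with the smallest unadjusted p of the 28 genes, 0.051. The other probe of Pmvk gave -0.14 (SE 0.05, limma unadjusted p = 0.017). Wild-type arrays ran from 3.14 to 3.22 and Ts1Cje arrays from 2.97 to 3.08, so that the genotypes did not overlap on that probe. As the mean over its probes, Pmvk had a limma unadjusted p of 0.014 and an adjusted p of 0.44. Both probes of each kinase thus had the same sign, and neither gene was called.

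In squalene synthesis and closure, Fdft1 and Sqle followed the array pattern on their brightest probes, and Lss did so only in part. Fdft1, the squalene synthase, ran 2.71, 2.51, 2.46 and 2.37 in wild-type and 2.31, 2.60, 2.52 and 2.42 in Ts1Cje. Its other probe, far dimmer, gave -0.24 (SE 0.22) and was lowest on wild-type replicate 2, so that the pattern rests on the brighter probe. Sqle, the squalene epoxidase, ran 3.65, 3.45, 3.29 and 3.34 in wild-type and 3.09, 3.51, 3.52 and 3.38 in Ts1Cje. Lss, the lanosterol synthase, ran -1.19, -1.46, -1.73 and -1.70 in wild-type and -1.71, -1.19, -1.54 and -1.54 in Ts1Cje. In Lss Ts1Cje replicate 2 was as high as wild-type replicate 1, wild-type replicate 3 was as low as Ts1Cje replicate 1, and the difference was 0.02 (SE 0.15, 95% interval -0.31 to 0.36).

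**Figure D3:**
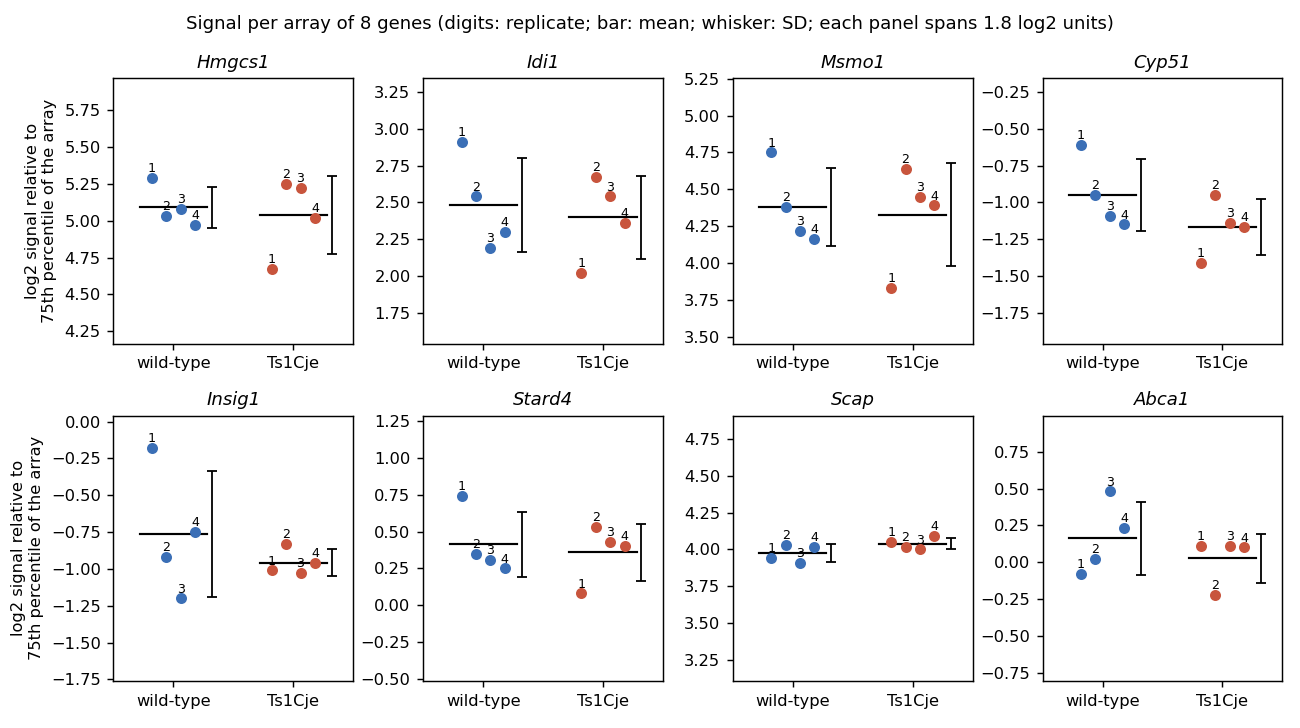
Log2 signal of 8 of the genes on each array, after subtraction of that array's 75th percentile (digits give the replicate, bars the mean and whiskers the SD, n = 4). Hmgcs1, Idi1, Msmo1, Cyp51 and Stard4 have their highest value on wild-type replicate 1 and their lowest on Ts1Cje replicate 1, Insig1 shares the former, and Scap and Abca1 share neither.

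Among the enzymes that turn lanosterol into cholesterol, the groups overlapped throughout. Hsd17b7, a sterol ketoreductase, ran from -0.40 to -0.19 in wild-type and stood at -0.67 on Ts1Cje replicate 1 against -0.33 to -0.21 on the other Ts1Cje arrays. Its other probe was also lowest on that array, at -0.74. Dhcr7, which catalyses the last reduction, Sc5d, which acts just before it, and Nsdhl, a decarboxylating dehydrogenase, were all lowest on Ts1Cje replicate 1. Their values there were -0.35, 1.61 and -0.57. The sterol reductase gene Tm7sf2 was lowest there too, at 2.35 against 2.49 to 2.78 on the other 7 arrays, and its other probe was lowest on the same array. Lbr, which serves as both a sterol reductase and a lamin B receptor, did not follow, with -0.45 and -0.44 on the replicate 1 arrays and its highest value, -0.16, on wild-type replicate 3. The other probe of Lbr was above background on 0 Ts1Cje and 3 wild-type arrays and was not tested. Ebp, the sterol isomerase, was highest on wild-type replicate 1 at 3.56 and lowest on Ts1Cje replicate 4 at 3.28, with Ts1Cje replicate 1 the highest of its genotype.

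Of the SREBP control genes, Insig1 had the widest range of all 28. It stood at -0.18, -0.92, -1.20 and -0.75 in wild-type and at -1.01, -0.83, -1.03 and -0.96 in Ts1Cje. Wild-type replicate 1 alone was high, 2.03-fold above wild-type replicate 3. Insig1 is itself a target of SREBPs, and on Ts1Cje replicate 1 it deviated by -0.15 from its own mean. Srebf2, which encodes the SREBP most devoted to sterol genes, ran 0.16, 0.20, 0.17 and 0.04 in wild-type and -0.16, 0.11, 0.12 and 0.02 in Ts1Cje, so that it shared the low value on Ts1Cje replicate 1 only. The other probe of Srebf2, which is dimmer, was lowest on wild-type replicate 4 at -2.33 and stood at -2.23 on Ts1Cje replicate 1. The difference of Srebf2 was -0.12 (SE 0.07, limma adjusted p = 0.67), and the dimmer probe gave -0.0020 (SE 0.08). Srebf1, the partner with a larger part in fatty acid genes, had its highest value, -1.68, on Ts1Cje replicate 1 and lay between -1.89 and -1.74 elsewhere. Scap, the escort, varied least of the 28 genes, between 3.91 and 4.09, with a difference of 0.07 (SE 0.05, 95% interval -0.04 to 0.18).

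Transport, storage and export genes split. Stard4, a soluble sterol carrier known as an SREBP target, ran 0.74, 0.35, 0.31 and 0.25 in wild-type and 0.08, 0.53, 0.43 and 0.40 in Ts1Cje, as the 8 enzymes above did. Its other probe, far dimmer, did not, with its highest value on wild-type replicate 4 at -2.38 and its lowest on wild-type replicate 3 at -4.48. The difference of Stard4 was -0.05 on the brighter probe and -0.25 as the mean over both. Abca1, the exporter, ran -0.08, 0.02, 0.48 and 0.23 in wild-type and 0.11, -0.22, 0.11 and 0.10 in Ts1Cje. Its lowest value fell on Ts1Cje replicate 2, where 16 of the 20 enzymes and 46.7% of all features were above their own mean. On Ts1Cje replicate 1, where the enzyme mean was lowest, Abca1 deviated by 0.02 from its own mean. A relation between Abca1 and the enzymes was not tested. Nr1h2, a liver X receptor, ranged from 3.30 to 3.65, and the esterifying enzyme gene Soat1 from -2.20 to -1.85. None of these 4 differed between genotypes past the threshold (limma adjusted p 0.77 or more).

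As a score, the mean log2 deviation of the 20 enzymes from their own means was 0.18, 0.03, -0.05 and -0.06 on wild-type replicates 1 to 4. It was -0.21, 0.11, 0.04 and -0.04 on Ts1Cje replicates 1 to 4. The genotype means differed by -0.05, less than the SD within wild-type (0.11) or Ts1Cje (0.14). Over all 28 genes the score was 0.16, 0.03, -0.04 and -0.04 in wild-type and -0.16, 0.06, 0.01 and -0.02 in Ts1Cje, a difference of -0.05. Wild-type replicate 1 minus Ts1Cje replicate 1 was 0.39 for the enzymes, 0.22 for SREBP control and 0.12 for transport, storage and export. The median range of an enzyme over the 8 arrays was 0.47, against 0.37 for all features and 0.29 for the 16934 features at least as bright as the dimmest of the 28 genes. With normexp, quantile normalization, the array median as centre or the mean over probes, the enzyme score stayed between 0.16 and 0.17 on wild-type replicate 1 and between -0.21 and -0.20 on Ts1Cje replicate 1.

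**Figure D4:**
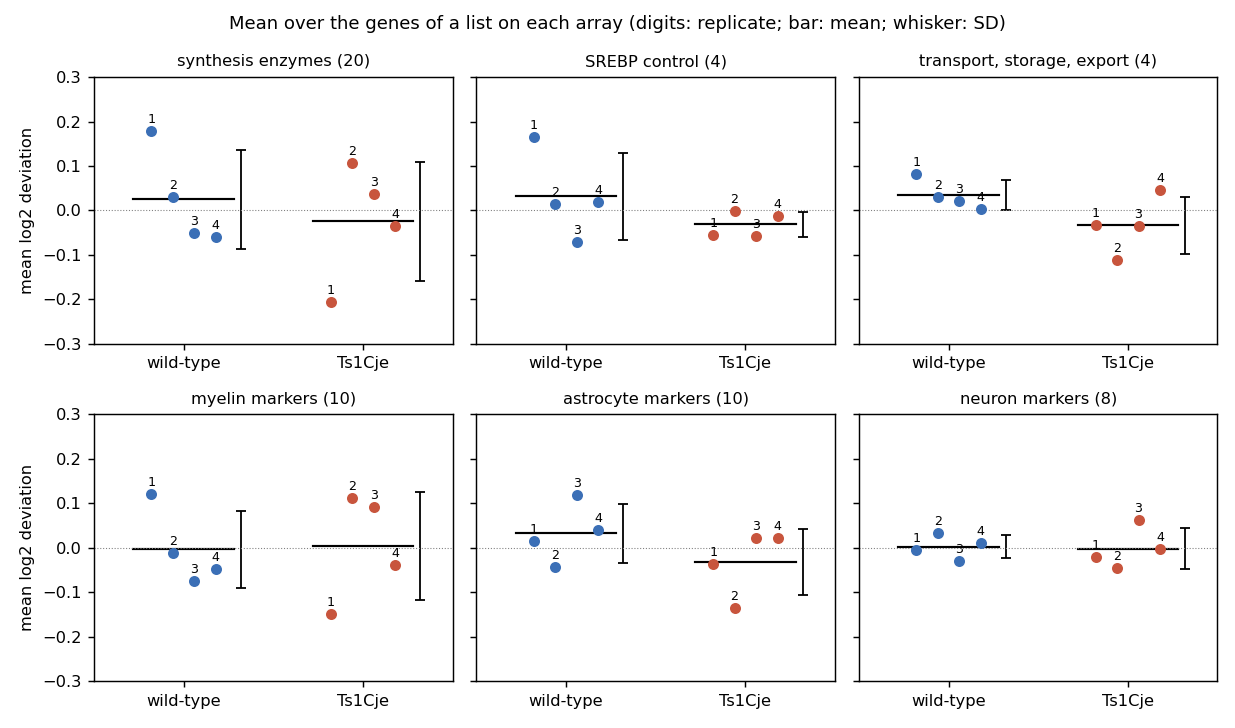
Mean log2 deviation on each array for the synthesis enzymes, SREBP control genes, transport genes and markers of myelin, astrocytes and neurons (digits give the replicate, bars the mean and whiskers the SD, n = 4). The myelin markers are highest on wild-type replicate 1 and lowest on Ts1Cje replicate 1, as the enzymes are, and the neuron markers stay between -0.05 and 0.06.

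Markers of myelin moved with the enzymes from array to array. In bulk tissue, fewer cells of a type and less RNA per cell cannot be told apart. The mean over 10 myelin genes was 0.12, -0.01, -0.07 and -0.05 in wild-type and -0.15, 0.11, 0.09 and -0.04 in Ts1Cje. Of the 10, 7 were above their own mean on wild-type replicate 1 (50.5% of all features) and 8 below it on Ts1Cje replicate 1 (50.3%). Opalin, a myelin membrane gene, stood at 0.69 and -0.72 on these arrays, whereas Mobp, also of myelin, was highest on Ts1Cje replicate 1, at 6.19. The log2 of the summed level of the 10 ran from 8.06 to 8.22 in wild-type and from 8.10 to 8.28 in Ts1Cje. Astrocyte markers stood at 0.01 and -0.04 on the replicate 1 arrays, neuron markers at -0.0060 and -0.02, and endothelial markers at -0.02 and 0.23. Choroid plexus markers stood at -0.13 and 0.17, a wider gap than that of myelin and in the opposite direction, and oligodendrocyte precursor markers at -0.15 and -0.10. Microglia markers stood at 0.03 and 0.0010. On Ts1Cje replicate 1 the microglia mean averaged opposite deviations, from -0.75 (P2ry12) to 0.58 (C1qb). The astrocyte mean there did so too, from -0.59 (Aqp4) to 0.57 (Aldh1l1). The part of these cell types in the enzyme pattern was not tested. The replicate 1 arrays lay side by side in the same row of the single slide, in which each column held 1 genotype, and an effect of the column cannot be told apart from genotype, with 60.6% (wild-type) and 63.1% (Ts1Cje) of probes well above background.

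Taking both replicate 1 arrays out turned the sign of 10 of the 20 enzymes and gave no call. This comparison of 3 against 3 arrays was chosen after the values were seen. The arrays left out were those on which most enzymes were high in wild-type and low in Ts1Cje. An upward shift of the enzyme differences as a set was therefore fixed by the choice. The p-values of this comparison do not allow for that choice. The median difference of the 28 genes moved from -0.05 to 0.04, and 12 of the 28 changed sign. Without wild-type replicate 1 the score difference over the 28 was -0.0090, and without Ts1Cje replicate 1 it was -0.01. With both out, the enzyme score differed by 0.06 in place of -0.05. Msmo1 then stood 0.24 higher in Ts1Cje (SE 0.09, limma adjusted p = 0.52), Mvk 0.20 (SE 0.07, adjusted p = 0.46) and Tm7sf2 0.18 (SE 0.06, adjusted p = 0.44). These 3 of the 28 genes had an unadjusted p under 0.05, beside 9.38% of all features. By adjusted p, 0 of the 28 and 0.0208% of all features were called. Abca1 stood at -0.25 (SE 0.15) in that comparison, and Cyp51, the lowest with all arrays, at -0.03 (SE 0.09).

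**Figure D5:**
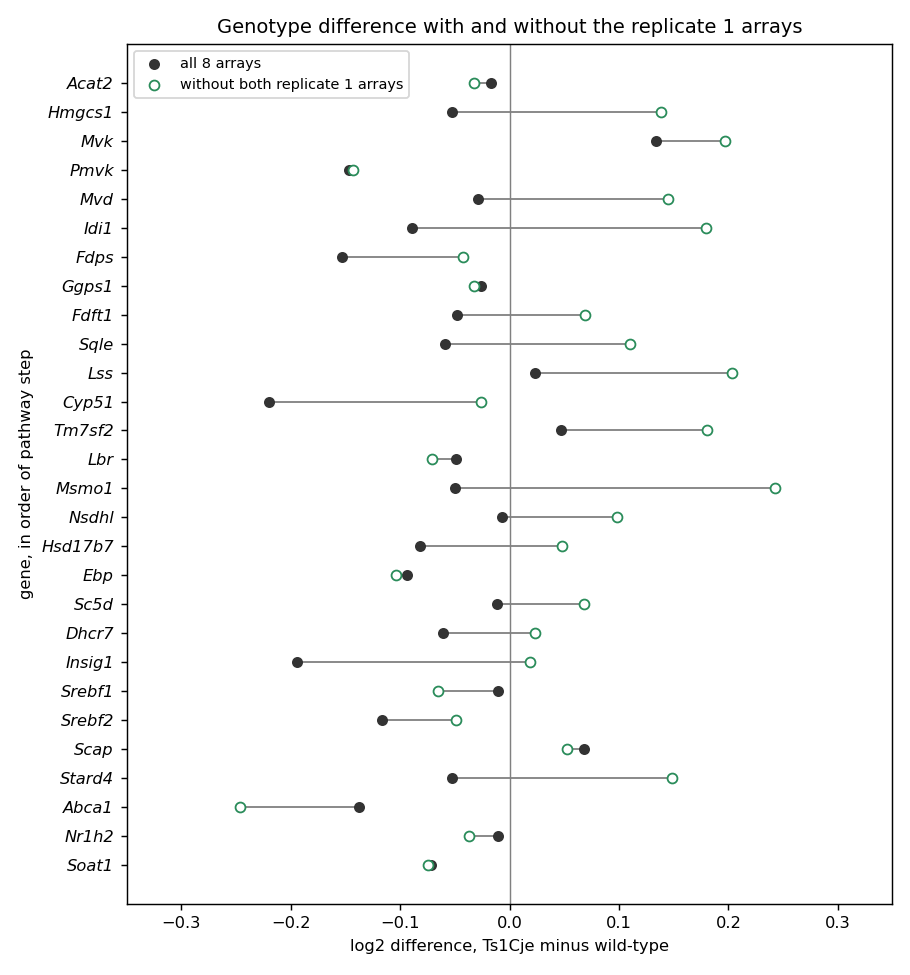
Log2 difference, Ts1Cje minus wild-type, of each of the 28 genes with all 8 arrays (filled) and without both replicate 1 arrays (open). Most open points of the synthesis enzymes lie to the right of the filled ones, Msmo1 moving from -0.05 to 0.24, while Pmvk, Ebp, Scap and Soat1 hardly move. The choice of arrays fixed this direction for the enzymes as a set.

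Genes of neighbouring pathways, listed by function, gave 0 calls by limma among 43 tested, and the 3 genes that passed 0.05 before adjustment are to be read against 8.73% of all features. Of 8 other genes of SREBP and liver X receptor control, 3 were above and 5 below 0, with Sp1, a general activator, at 0.18 (SE 0.06, adjusted p = 0.45). Of 15 other genes of sterol transport and turnover, 9 were above 0, and Lcat, which esterifies cholesterol on lipoproteins, stood at 0.28 (SE 0.07, adjusted p = 0.33) with groups that did not overlap. Among 8 genes that use isoprenoids, 5 were below 0 and Pggt1b, a prenyltransferase subunit, stood at -0.17 (SE 0.08, adjusted p = 0.61). Of 12 fatty acid genes under SREBPs, 7 were below 0, and Pnpla3, a lipid droplet gene, stood at 0.38 (SE 0.09, adjusted p = 0.26) with groups that did not overlap, which held for 6.12% of all features. Of the fatty acid genes, 9 of 12 were above their own mean on wild-type replicate 1, against 50.5% of all features. On Ts1Cje replicate 1, 8 of 12 were below it, against 50.3% of all features. Their mean deviations on these arrays were 0.03 and -0.08. Ch25h, which makes the oxysterol that holds SREBPs inactive, was named after its values were seen. It stood at -1.55 on wild-type replicate 1 and -0.26 on Ts1Cje replicate 1, against -3.87 to -3.07 on the other 6 arrays. The part of Ch25h in the enzyme pattern was not tested.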

How the data were processed

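RNA labelled with Cy3 from 0.1 µg per sample was hybridised to 8 arrays on 1 slide, read in 1 scan, per the labels' protocols and file headers. The deposited files hold spot intensities on a linear scale from Agilent Feature Extraction 10.10.1.1, background-corrected by that software and not normalized between arrays, on a design of build mm9 per the file headers. Control spots and spots marked as outliers were dropped, and saturation was found on none. Spots of a probe were averaged as log2 processed signal, less the 75th percentile of the array. The filter kept probes that Feature Extraction marked above background in every sample of either genotype, and a gene was its brightest kept probe. Symbols came from a RefSeq table of GRCm38.p6. The genotype test was limma 3.58.1 (R 4.3.3; lmFit and eBayes, no block) over 24025 features. The fit was tested on simulated data. All 28 genes were named whatever their values, and of each neighbouring list the gene with the smallest p. Ch25h and the marker genes Opalin, Mobp, P2ry12, C1qb, Aqp4 and Aldh1l1 were named after their values were seen. The members and lists were chosen with earlier results of these data known. Normexp used median signals, as mean spot signals were not used here. Alternatives were other background corrections, scalings, filters, probe rules, weights, blocks and left-out arrays. Each replicate is taken as 1 mouse from the design text, and p-values cover the spread among these only.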

Additional observations from a re-analysis of the deposited data

Results flagged for a closer look

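Of 70 sets of 4 arrays examined (each gene and each score within a genotype), 2 held an outlying array by Dixon's criterion, where 3.5 are expected by chance, about 1 in 20. Mvk stood at 3.32 on wild-type replicate 1 against 3.05 to 3.08 on the other wild-type arrays. Abca1 stood at -0.22 on Ts1Cje replicate 2 against 0.10 to 0.11 on the other Ts1Cje arrays.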

How the results depend on the processing

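No member gene was called under any of the 19 settings, and the lowest adjusted p was 0.30. Of 24025 features, 47 were called, against 25 with the array median as centre, 23 without the filter, 71 with trend and robust moderation, 84 with array weights and 1 with the replicate number as a block. Leaving out 1 array gave 13 to 44, and leaving out both replicate 1 arrays, chosen after the values were seen, gave 5. Deviations of same-numbered arrays correlated at 0.24, 0.19, 0.11 and 0.05, and the labels do not tie numbers to litters, so the block serves as an alternative only. Under it Pmvk had an unadjusted p of 0.041 (limma with Benjamini-Hochberg, adjusted p = 0.43) and no member was called. The mean difference of the 28 genes ran from -0.10 (array median as centre) to 0.04 (without both replicate 1 arrays). Signs of uncalled genes turned in 65 of 532 combinations of gene and setting, and 9 genes never turned. With array weights the values that turned were Hmgcs1 0.015, Mvd 0.0233, Ggps1 0.0014, Msmo1 0.0404, Nsdhl 0.0861, Sc5d 0.0131, Stard4 0.0012. With the mean over probes Ggps1 0.0009, with the array median as centre Lss -0.0267, Tm7sf2 -0.0036, with quantile normalization Sc5d 0.004, Nr1h2 0.0085 and with normexp Srebf1 0.0013 turned. Without both replicate 1 arrays the values that turned were Hmgcs1 0.139, Mvd 0.145, Idi1 0.18, Fdft1 0.0688, Sqle 0.11, Msmo1 0.242, Nsdhl 0.0982, Hsd17b7 0.0483, Sc5d 0.0681, Dhcr7 0.0235, Insig1 0.0191, Stard4 0.148. Leaving out 1 array at a time gave ranges across 0 for Acat2 (-0.148 to 0.0803), Hmgcs1 (-0.123 to 0.0712), Mvd (-0.125 to 0.101), Idi1 (-0.188 to 0.0533), Ggps1 (-0.0465 to 0.012), Fdft1 (-0.0969 to 0.0191), Sqle (-0.107 to 0.0371), Lss (-0.0786 to 0.133), Tm7sf2 (-0.0059 to 0.135), Lbr (-0.104 to 0.0443), Msmo1 (-0.154 to 0.117), Nsdhl (-0.0787 to 0.0807), Hsd17b7 (-0.136 to 0.0173), Sc5d (-0.0644 to 0.0418), Dhcr7 (-0.126 to 0.0148), Insig1 (-0.341 to 0.0004), Srebf1 (-0.0548 to 0.0168), Stard4 (-0.108 to 0.0563), Nr1h2 (-0.0794 to 0.0367). The cause was not tested. The number of arrays limits precision, and signal over background limits the dimmer second probes of Fdft1, Lbr and Stard4.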
